A study of Mus musculus with 48 samples.

Results

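Transitional (Ttran) and terminal (Tterm) CD8 T cells carrying the control guide were compared by ATAC-seq in tumours of young mice, over all 53868 peaks of the deposited table. These are 6 of the 48 libraries of the series, 3 per state, chosen by the group named in the sample titles and not by any measured value. Both groups are CD45.1 OT-1 CD8 T cells, whose receptor recognises an ovalbumin peptide, and both carry Cas9 and a lentiviral vector with an ametrine reporter and a guide that the labels call OTC control. Naive-like splenic cells were transduced, sorted for the reporter and given to young mice a day before B16-OVA melanoma cells, which express ovalbumin. Cells were sorted from the tumours on day 15, Ttran, which the labels describe as transitory and effector-like, as Slamf6+ Tim-3+ cells, and Tterm, labelled terminally exhausted, as Slamf6- Tim-3+ cells. Each library is a pool of sorted cells from several mice, with 5000 to 50000 cells per combination of guide and state, and the ages of the mice are not given in the sources used here. Which mice entered which pool is not stated, so p-values measure a spread between pools, not between mice. That spread was estimated within groups over all 48 libraries, not from the 6 alone. The same contrast was tested in 3 other settings that share no library with it and differ by guide or by age: young mice with a Zfp219 guide (3 against 3 libraries), young mice with a Dusp5 guide (3 against 3) and aged mice with the OTC guide (2 against 2). Aged mice with the Zfp219 or the Dusp5 guide (2 against 2 each), which differ by both, were not tested peak by peak here. Progenitor cells (Tprog, Slamf6+ Tim-3-) served as a reference state.

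In ATAC-seq the Tn5 transposase cuts open chromatin, so the reads in a peak measure how accessible a promoter or enhancer is. Under lasting antigen stimulation, CD8 T cells pass from a TCF-1-positive progenitor pool through a transitional state to terminally exhausted cells, and this path is accompanied by loss of open sites at memory-type genes and gain of sites at genes such as Tox and Entpd1. AP-1 factors, dimers of the Fos, Jun, Batf and Atf families, act downstream of the T cell receptor and bind many of the enhancers that differ between these states.

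Peaks over the promoters of 4 genes are examples of sites that moved. Each peak is wider than the sequence printed for it, so its change cannot be placed at a site within it. The sequences below are the bases before the RefSeq start site (GRCm38.p6), on the gene's strand from 5′ to 3′, and were picked after their values were seen. Capitals mark matches on either strand to the letters GAANNTTC (heat shock element), TGTGGT (RUNX), CCGGAA (ETS), TGANTCA (AP-1) or AGGTGT (T-box). The first is the promoter of Hspa1a, an inducible Hsp70 chaperone, at chr17:34972157-34972406 on the minus strand. Its peak, chr17:34968399-34972680, reaches far beyond the printed bases and also covers the start of the neighbouring Hspa1l. The next is Rasgef1a, an exchange factor for Ras-type GTPases, at chr6:118066135-118066384 on the plus strand. Gzme, a granzyme of cytotoxic granules, lies at chr14:56120626-56120875 on the minus strand. Rps10, a protein of the small ribosomal subunit, lies at chr17:27635245-27635494 on the minus strand. It is an example of the CpG-rich promoters that were lower in Ttran under the deposited scaling, on which the direction of promoter calls depends.
Hspa1a: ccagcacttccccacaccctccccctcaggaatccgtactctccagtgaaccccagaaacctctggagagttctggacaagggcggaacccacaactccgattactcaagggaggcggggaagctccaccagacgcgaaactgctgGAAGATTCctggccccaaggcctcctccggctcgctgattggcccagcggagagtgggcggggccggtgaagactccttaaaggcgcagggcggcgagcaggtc
Rasgef1a: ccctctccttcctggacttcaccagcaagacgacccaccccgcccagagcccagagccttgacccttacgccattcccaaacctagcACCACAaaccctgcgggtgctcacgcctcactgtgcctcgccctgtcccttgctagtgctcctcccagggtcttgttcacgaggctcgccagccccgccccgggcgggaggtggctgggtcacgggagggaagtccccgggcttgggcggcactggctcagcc
Gzme: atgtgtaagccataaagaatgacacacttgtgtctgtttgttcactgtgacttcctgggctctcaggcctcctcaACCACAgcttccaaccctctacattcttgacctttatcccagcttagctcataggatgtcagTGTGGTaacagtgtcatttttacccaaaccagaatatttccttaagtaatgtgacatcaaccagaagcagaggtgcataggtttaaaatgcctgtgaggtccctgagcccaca
Rps10: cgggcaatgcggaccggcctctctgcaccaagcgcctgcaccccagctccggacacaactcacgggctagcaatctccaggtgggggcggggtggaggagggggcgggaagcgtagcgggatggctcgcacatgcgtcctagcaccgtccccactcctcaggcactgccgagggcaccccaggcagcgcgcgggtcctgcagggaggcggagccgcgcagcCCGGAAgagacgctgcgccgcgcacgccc

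Hspa1a and Rasgef1a were higher in Ttran, Gzme and Rps10 lower. The Hspa1a peak held 4617, 4673 and 4661 normalized reads in Ttran against 2980, 3076 and 3060 in Tterm, a log2 fold change of 0.61 (limma adjusted p = 2.42e-17). At Rasgef1a the values were 714, 733 and 626 against 388, 462 and 420 (0.71 ± 0.09, limma adjusted p = 3.88e-09). Neither pair of groups overlapped. Gzme held 101, 93.8 and 77.1 in Ttran against 161, 128 and 183 in Tterm (-0.78 ± 0.22, limma adjusted p = 0.0111). Its call was lost without Ttran replicate 3 (-0.67) or without Tterm replicate 3 (-0.67). For Rps10 the values were 258, 210 and 268 against 432, 447 and 430 (-0.84 ± 0.12, limma adjusted p = 2.1e-07). In the other settings the Rps10 fold change was -0.30 with Zfp219, -0.58 with Dusp5 and 0.01 in aged OTC mice. Counted with the 50 bases after the start site, the Gzme window is 46.3% G and C with 0 CpG pairs, and the Rps10 window 72.3% with 31. A normalized read here is a read count divided by the library's size factor. Fold changes are differences of mean log2(value + 1), so those of weak peaks are understated. Their standard error from limma is given by ± (n = 3 against 3), with the spread estimated from all libraries of the series.

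The 6 libraries had 12629361 to 29942755 reads in peaks, with the lowest and the highest both in Ttran (replicates 3 and 1). Across peaks, Pearson's r of log2(value + 1) was 0.962 to 0.978 over the 6 replicate pairs and 0.956 to 0.969 over the 9 pairs of a Ttran with a Tterm library, where peaks are not independent replicates. T cell genes were open in both states, with 29261 to 29512 normalized reads over 87 peaks in Ttran and 29228 to 29614 in Tterm. Sums for some markers of other cells overlapped between the states. They were 3643 to 3683 against 3516 to 3760 for myeloid genes over 24 peaks, and 1109 to 1313 against 1102 to 1206 for B cell genes over 12. Stromal and endothelial genes had 3887 to 4037 against 3884 to 4012 over 20. These sums cover different numbers of peaks, so they do not compare levels between lists. No peak was assigned to Cd79a, Ms4a1, Adgre1, Csf1r, Lyz2, Foxp3, Tyr or Dct. Other genes of such lists did have peaks, among them Pax5 (5), Itgam (7), Fcgr1 (11) and Pecam1 (13). NK cell markers summed to 3648 to 3794 in Ttran and 3297 to 3530 in Tterm, melanoma markers to 1355 to 1402 and 1269 to 1328, both higher in Ttran without overlap. Their part in the results was not tested. The strongest peak of the table, 45855 bp on an unplaced scaffold where read placement is uncertain, took 0.68% to 0.715% of normalized reads in Ttran and 0.376% to 0.39% in Tterm.

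Of the 53868 peaks, 4515 (8.38%) differed at a limma adjusted p under 0.05, of which 2705 (5.02%) were higher and 1810 (3.36%) lower in Ttran. The split depended on the method. It was 4352 higher and 1858 lower with edgeR, 3454 and 3416 with DESeq2, and 4066 and 3265 with the compared groups alone. Larger changes ran mostly upward: 461 of the higher and 73 of the lower peaks changed at least 2-fold, that is by a log2 fold change of 1 or more. The median absolute log2 fold change was 0.54 among higher, 0.40 among lower and 0.22 among all peaks. Values of the 3 and the 3 libraries did not overlap at 4386 of the 4515 called peaks, against 29.1% of all peaks. The peaks were called on these same libraries, so this lack of overlap largely follows from the choice. Higher peaks lay mostly away from start sites, at a median distance of 29118 bp, while the median lower peak overlapped one (0 bp). Because cells were pooled, a site opened more in each cell and a site open in more of the cells cannot be told apart. Calls depended on signal: 18.9% of the strongest 13467 peaks were called and 1.78% of the weakest 13467. Leaving out Tterm replicate 2 gave 2916 calls, and leaving out Ttran replicates 1 and 3 together gave 1356, 816 higher and 540 lower.

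**Figure D1:**
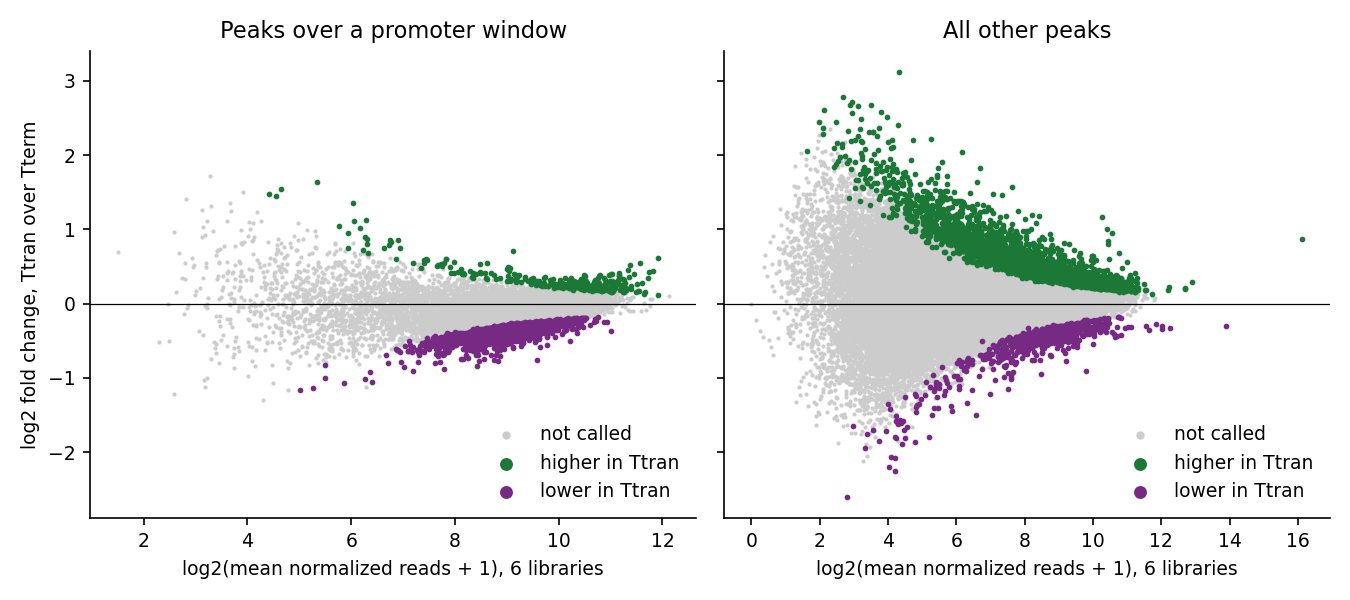
Each point is a peak. The x axis is log2 of the mean normalized reads over the 6 young OTC libraries plus 1, the y axis the log2 fold change of Ttran over Tterm, with the 9254 peaks over a promoter window at left and the other 44614 at right; green peaks were called higher and purple peaks lower in Ttran. Calls at promoters are mostly shallow falls (1152 against 291 rises), while calls elsewhere are mostly rises (2414 against 658 falls); with promoter peaks scaled on their own the promoter calls were 838 rises and 502 falls.

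Slamf6, whose product was used to sort the states, served as a check of the labels. Of its 6 peaks, 5 were higher in Ttran and 0 lower. The peak with the lowest p, 1031 bp from the gene body at chr1:171915612-171916427, held 302, 294 and 338 normalized reads in Ttran against 155, 129 and 112 in Tterm (log2 fold change 1.24 ± 0.12, limma adjusted p = 4.2e-13). Tprog, also Slamf6+, had 390 and 370 there. The ranks of these values follow the gate. Of the 5 peaks of Havcr2, which encodes Tim-3 and was selected for in both states, none was called, where 8.38% of all peaks were. So few peaks cannot show that the locus was alike in both states.

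Peaks at genes of stem-like and progenitor cells were called more often than all peaks, mostly as higher. Of 244 peaks at 20 such genes, 54 were higher and 2 lower in Ttran, 22.95% called against 8.38% of all peaks, with a median log2 fold change of 0.20 against 0.014. The higher peaks fell on 14 of the genes, among them Bach2 (11 of 35 peaks), Tcf7 (7 of 12), Ccr7 (7 of 11), Xcl1 (7 of 18), S1pr1 (6 of 15), Id3 (4 of 7) and Nsg2 (4 of 10). The 2 lower peaks were promoters, of Ikzf1 (-0.45) and of Satb1 (-0.43), the latter a call lost without Tterm replicate 3 (-0.35) or Ttran replicate 1 (-0.34). This list, like the others here, was drawn up with earlier results of these data known. Its count was 41 to 47 calls with a library left out and 21, all higher, without Ttran replicates 1 and 3.

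Tcf7 encodes TCF-1, the factor that defines the progenitor pool. Its peak inside the gene body at chr11:52273512-52275959 held 136, 220 and 192 normalized reads in Ttran and 86.6, 104 and 91.1 in Tterm (log2 fold change 0.93 ± 0.16, limma adjusted p = 1.5e-05). In Tprog the same peak held 844 and 880, so the Ttran libraries lie above all Tterm libraries but far nearer to them than to Tprog. Id3, an inhibitor of E proteins that marks memory-type cells, behaved likewise at a peak 36465 bp from the gene: 250, 192 and 145 in Ttran, 92.9, 88.8 and 92.8 in Tterm, 776 and 781 in Tprog (1.05 for Ttran over Tterm, limma adjusted p = 6.8e-08). Ccr7, the receptor that directs T cells to lymph nodes, had 366, 356 and 356 in Ttran against 177, 212 and 160 in Tterm at a peak 11291 bp from the gene (0.98 ± 0.10, limma adjusted p = 2.3e-12), and 669 and 761 in Tprog. At Xcl1, a chemokine for cross-presenting dendritic cells, a peak 52272 bp away held 138, 131 and 116 against 56.9, 55.8 and 73.7 (1.04 ± 0.19, limma adjusted p = 6.9e-05). There Ttran lay within the Tprog values of 173 and 107. Smaller rises came at S1pr1, which directs exit from tissue (0.42), at Nsg2 (0.88), at Il6ra (0.59), at Cxcr5 (0.47) and at Bach2, a repressor that restrains effector genes (0.26).

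**Figure D2:**
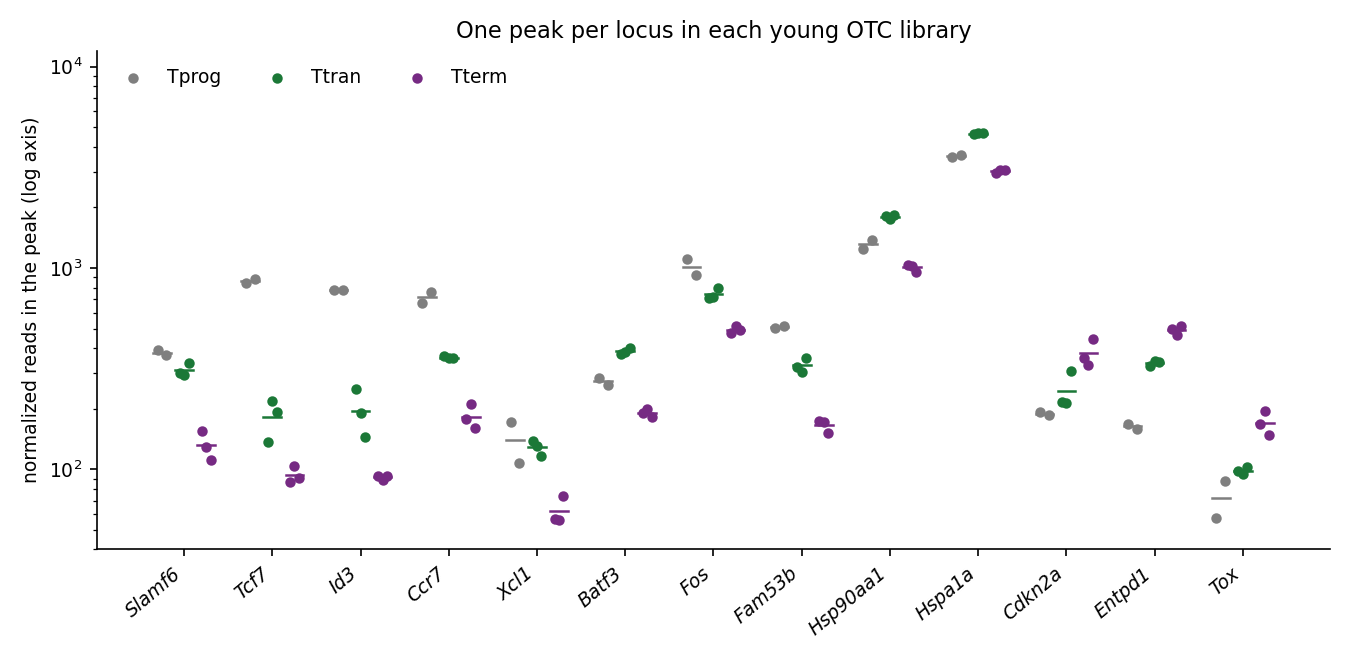
Normalized reads (log axis) in the lowest-p peak of each of 13 loci in the young OTC libraries; points are libraries (2 Tprog, 3 Ttran, 3 Tterm) and bars their means. Peaks were picked by the p of this contrast, so the lack of overlap between Ttran and Tterm at the 13 loci largely follows from the choice. Over all peaks, 29.1% do not overlap. Tcf7, Id3, Ccr7 and Fam53b fall from Tprog through Ttran to Tterm. The 2 heat shock loci and Batf3 are highest in Ttran, and Cdkn2a, Entpd1 and Tox are highest in Tterm.

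AP-1 genes had the highest share of called peaks of any list apart from the sorting markers. Of 82 peaks at 14 AP-1 genes, 27 were higher and 1 lower (34.1% called against 8.38%), with a median log2 fold change of 0.25. All 9 peaks of Batf3 were higher. Batf3, which pairs with Jun proteins, had 373, 381 and 402 normalized reads in Ttran and 192, 200 and 183 in Tterm at chr1:191099893-191100864 inside its body (1.01 ± 0.13, limma adjusted p = 6.5e-09). Tprog had 284 and 264, so this peak was highest in Ttran of the 3 states. Fosb had 5 of 6 peaks higher, Atf3 5 of 6, Fos 3 of 10, Jun 3 of 8 and Junb its only peak. A site 26198 bp from Fos, an immediate early gene, rose from 477, 517 and 490 in Tterm to 709, 716 and 794 in Ttran (0.58 ± 0.08, limma adjusted p = 9.7e-08). Promoter peaks rose by less, 0.24 at Fosb, 0.22 at Junb and 0.21 at Jun, and these 3 calls were lost under quantile normalization (0.11, 0.08 and 0.06). The lower peak was the promoter of Mafk (-0.27), a call lost without Tterm replicate 1 (-0.24), Tterm replicate 2 (-0.25) or Ttran replicate 1 (-0.22).

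**Figure D3:**
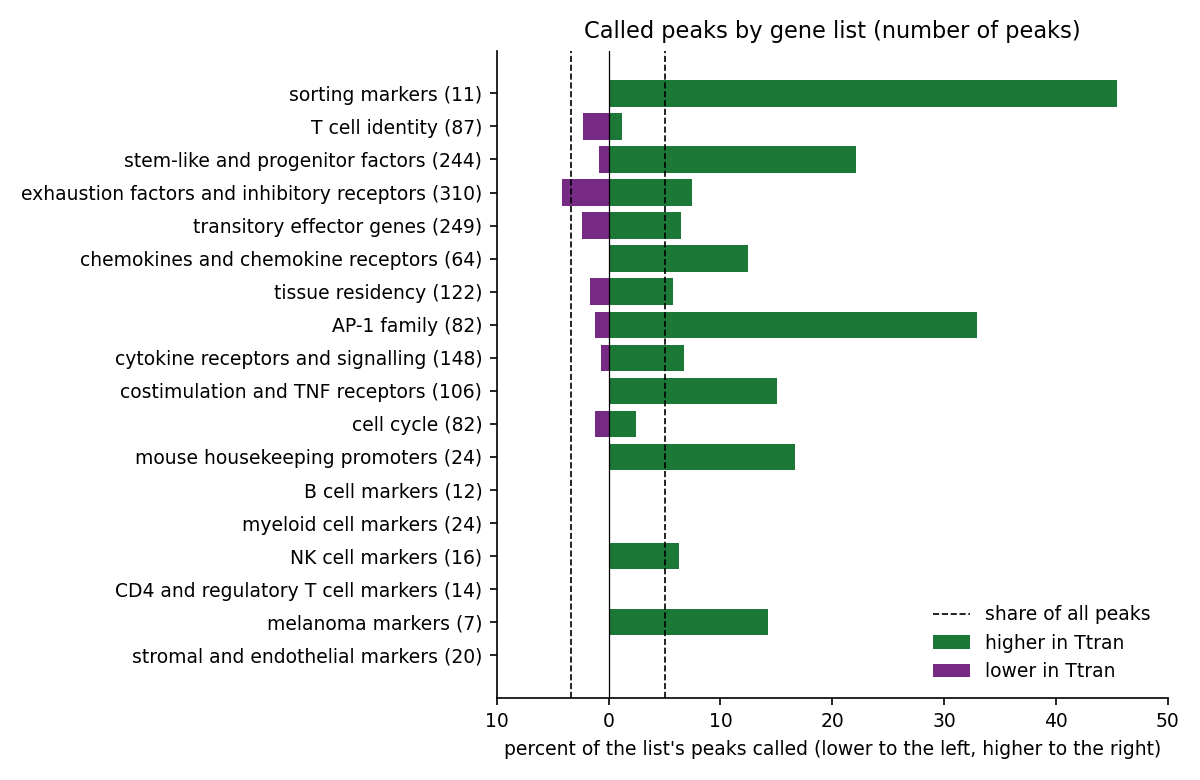
Percent of the peaks of each gene list that were called higher (green, right) or lower (purple, left) in young OTC Ttran; the number of peaks stands beside each name and dashed lines mark the shares of all peaks, 5.02% higher and 3.36% lower. AP-1 and stem-like genes reach far past the right line, while T cell identity and cell cycle genes stay inside both lines.

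Some heat shock genes had higher peaks in Ttran, on a list drawn up after their values were seen. Of 44 peaks at 15 genes, 12 were higher and 0 lower (27.3% called), on 9 genes: Hspa1a, Hspa1b, Hsp90aa1, Hspa8, Hsph1, Dnajb1, Dnaja1, Bag3 and Hspa5. Hsf1, Hsp90ab1, Hspa4, Hspb1, Hspd1 and Hspe1 had no called peak. The rises were not general to promoters. Promoter peaks were called at Hspa1a, Hspa1b and Hspa5, but not at Dnajb1 (0.08), Dnaja1 (-0.02), Bag3 (0.02) or Hsph1 (0.12). The peaks given next for Hsp90aa1, Hsph1 and Dnajb1 overlap no promoter window. Hsp90aa1, the inducible Hsp90 chaperone, had 1822, 1751 and 1826 normalized reads in Ttran against 1037, 1025 and 957 in Tterm at chr12:110688567-110691123 (log2 fold change 0.84 ± 0.08, limma adjusted p = 6.87e-15). At Hsph1, a co-chaperone of Hsp70, the values were 1867, 1805 and 1691 against 1058, 947 and 1055 (0.81 ± 0.09, limma adjusted p = 1.44e-10). Dnajb1, an Hsp40, had 867, 902 and 841 against 504, 506 and 568 (0.73 ± 0.11, limma adjusted p = 2.4e-06). Hspa1a and Hspa1b are near-identical copies, so reads could be split between them, and their folds (0.61 and 0.52) are uncertain in their division. Summed over the list, Ttran libraries held 36020 to 36318 normalized reads and Tterm libraries 28908 to 29457. Tprog libraries, at 31229 and 32646, lay between. The call at Hspa5, the endoplasmic reticulum chaperone, was lost without any of the 6 libraries in turn (0.13 to 0.21).

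Other immediate early genes outside the AP-1 family, also listed after seeing the values, had 18 peaks higher and 1 lower of 96, 9 of the rises at Cd83. Cd83 is an activation-induced surface protein, and its peak 9350 bp from the gene held 1246, 1241 and 1214 in Ttran against 784, 789 and 806 in Tterm (0.64 ± 0.06, limma adjusted p = 4.2e-13). The NK gene complex on chromosome 6 had 5 peaks higher and 1 lower of 76 (7.89% called), and granzyme genes 0 higher and 1 lower of 28 (3.57%), the Gzme promoter shown above. Both shares are below the 8.38% of all peaks. The granzyme peaks had a median log2 fold change of -0.21. In the other settings 6 of them were called lower with Dusp5, 3 with Zfp219 and 2 in aged OTC mice, and 0 higher. Of all peaks, 3.59%, 0.85% and 1.35% were called lower there. The Gzmf promoter peak was -1.12 and not called here (limma adjusted p = 0.0845). It was called lower with Zfp219 (-2.05), with Dusp5 (-1.79) and in aged OTC mice (-1.70).

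Exhaustion genes did not move as a block. Of 310 peaks at 25 such genes, 23 were higher and 13 lower in Ttran (11.6% called), with a median log2 fold change of 0.012 against 0.014 over all peaks. Tox, the factor that establishes the exhausted chromatin state, had 4 of 27 peaks lower and 0 higher. Its intragenic peak at chr4:6833655-6834908 held 98.0, 94.6 and 102 in Ttran and 167, 195 and 147 in Tterm (-0.77 ± 0.19, limma adjusted p = 0.0032), with 57.3 and 87.3 in Tprog. Entpd1, which encodes the ectonucleotidase CD39 and marks terminal cells, had 2 of 12 lower. One of them held 327, 344 and 341 in Ttran and 497, 463 and 514 in Tterm (-0.54 ± 0.13, limma adjusted p = 0.0023), against 168 and 158 in Tprog. At both loci the Ttran values lay between those of the other states. Of the inhibitory receptor genes, Ctla4 had 1 of 12 peaks higher (0.33), Pdcd1 1 of 9 (0.28) and Tigit 2 of 11 (0.28 at the lower p). Lag3 (4 peaks), Cd244a (4) and Cd160 (1) had none called, with median log2 fold changes of -0.06, -0.18 and -0.07. Tox2, a paralog of Tox, was higher at its promoter, with 467, 479 and 448 against 315, 353 and 286 (0.55 ± 0.11, limma adjusted p = 0.00035). Cish, a brake on cytokine and receptor signalling, had 3 of 6 peaks higher, one of them 640, 758 and 624 against 420, 486 and 485 (0.54 ± 0.10, limma adjusted p = 4.5e-05). The calls named here at Tox, Entpd1, Ctla4, Pdcd1 and Tigit held without any single library; those at Tox, Entpd1, Ctla4 and Tigit were lost without Ttran replicates 1 and 3.

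Cell cycle genes had 2 peaks higher and 1 lower of 82 (3.66% called). The lower peak covers the promoter of Cdkn2a, whose products p16 and p19ARF halt the cycle and accumulate with senescence. It held 216, 213 and 309 in Ttran against 358, 329 and 444 in Tterm (-0.62 ± 0.13, limma adjusted p = 0.00053), with 192 and 186 in Tprog. The groups did not overlap, and the call held in every alternative run on the peak.

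Genes of transitory effector cells had 16 peaks higher and 6 lower of 249 (8.84% called), a share near that of all peaks. Itgb1, the beta chain of several adhesion integrins, gave 5 of the rises, a peak 37833 bp away holding 1288, 1244 and 1123 in Ttran against 963, 977 and 969 in Tterm (0.33 ± 0.07, limma adjusted p = 0.0004). The promoter of Tbx21, which encodes the effector factor T-bet, was lower in Ttran, with 377, 407 and 384 against 554, 509 and 503 (-0.42 ± 0.10, limma adjusted p = 0.0014), a call lost without Ttran replicates 1 and 3 (-0.36). Cytokine receptor and signalling genes had 10 higher and 1 lower of 148 (7.43%), tissue residency genes 7 and 2 of 122 (7.38%), and T cell identity genes 1 and 2 of 87 (3.45%). Costimulation and TNF-family genes had 16 higher and 0 lower of 106 (15.1%). Tnfsf8, the ligand of CD30, contributed 4, with 725, 678 and 702 against 431, 462 and 439 at a peak 36776 bp away (0.66 ± 0.08, limma adjusted p = 6.5e-09). Chemokine and receptor genes had 8 higher and 0 lower of 64 (12.5%), including 2 of 12 near Cxcr4, which binds CXCL12 (0.38). Over all lists together, 174 peaks were higher and 28 lower of 1614 (12.5%).

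Outside the lists, single loci carried runs of higher peaks. Fam53b had 12 of its 15 peaks higher and 0 lower between chr7:132719210-132814050, Rora 12 of 30, Foxp1 11 of 46, Emb 9 of 14 and Tomm20 8 of 20 with 1 lower. Fam53b had 324, 306 and 357 in Ttran and 174, 171 and 152 in Tterm at its lowest-p peak (0.98 ± 0.12, limma adjusted p = 2.9e-09), and 504 and 514 in Tprog. Emb, a chaperone of monocarboxylate transporters, had 336, 360 and 318 against 171, 204 and 178 (0.87 ± 0.12, limma adjusted p = 2.7e-08). Runs of lower peaks were shorter: 7 of 8 at Gm40363, 4 of 12 at Srgap3, and 3 each at Upf1, Osr2, Ror2, Fcgr3 and Cstad. Of 1692 genes with a higher peak and 1682 with a lower one, 152 had both.

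The largest rise among peaks with a mean of at least 20 normalized reads lay in Rora, which encodes an orphan nuclear receptor: 63.1, 54.7 and 68.6 in Ttran against 15.8, 9.44 and 12.9 in Tterm (2.22 ± 0.32, limma adjusted p = 2e-07). A peak 24647 bp from Vangl2 and 26513 bp from Slamf6 came next, with 36.2, 47.7 and 42.2 against 6.95, 6.29 and 12.9 (2.2 ± 0.33, limma adjusted p = 5.3e-07). Then came sites near Nxpe4 (2.04) and Nectin1 (1.94) and in Foxp1 (1.91), a factor that keeps naive T cells quiescent. At Foxp1 the values were 80.4, 67.2 and 73.9 against 16.4, 22 and 18.6, with 228 and 242 in Tprog. Dhrs3, a retinal reductase, followed at 155, 192 and 133 against 36.7, 47.2 and 48.4 (1.83 ± 0.20, limma adjusted p = 1.8e-11). Of the 12 largest rises, 9 kept their call without each library in turn; the calls lost were those near Nectin1 without Tterm replicate 3 (1.42), in Nebl without Tterm replicate 1 (1.31) and near Hmga2 without Tterm replicate 2 (1.36). The 12 largest falls were weak peaks, from -1.89 in Foxe1 to -1.40 near Lpp, and 1 of them kept its call in that way, near Ror2 with 15, 20.3 and 11.6 against 66.4, 49.5 and 51.7 (-1.79 ± 0.42, limma adjusted p = 0.0022).

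Called peaks at promoters were mostly lower in Ttran and called peaks elsewhere mostly higher, under the deposited scaling. Peaks over a promoter window, from 250 bp before to 50 bp after a RefSeq start site, made up 63.6% of the lower peaks, 10.8% of the higher peaks and 17.2% of all peaks. Promoter peaks had 291 rises and 1152 falls among 9254 (15.6% called), with a median log2 fold change of -0.10 over all of them. Other peaks had 2414 rises and 658 falls among 44614 (6.89% called), with a median of 0.05. The share of normalized reads in promoter peaks was 37.0%, 37.3% and 38.0% in Ttran and 39.5%, 39.7% and 39.6% in Tterm, without overlap, and 38.0% and 38.2% in Tprog. This share moved with the state as a property of whole libraries, and its part in the single promoter calls was not tested. When promoter peaks were scaled on their own, a choice made after the values were seen, their calls were 838 higher and 502 lower, so the direction of the promoter block depends on the scaling. Other peaks scaled on their own gave 1665 higher and 808 lower. The share of promoter reads was also lower in Ttran in the 3 other tested settings: 37.9% to 38.5% in Ttran against 39.1% to 39.6% in Tterm with the Zfp219 guide, 36.7% to 37.6% against 38.7% to 39.6% with Dusp5, and 37.2% to 37.5% against 38.4% to 38.8% in aged OTC mice. It was not lower in aged mice with the other guides: 39.9% to 40.4% in Ttran against 39.4% to 39.5% in Tterm with Zfp219, and 37.3% to 38.4% against 37.3% to 37.6% with Dusp5.

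**Figure D4:**
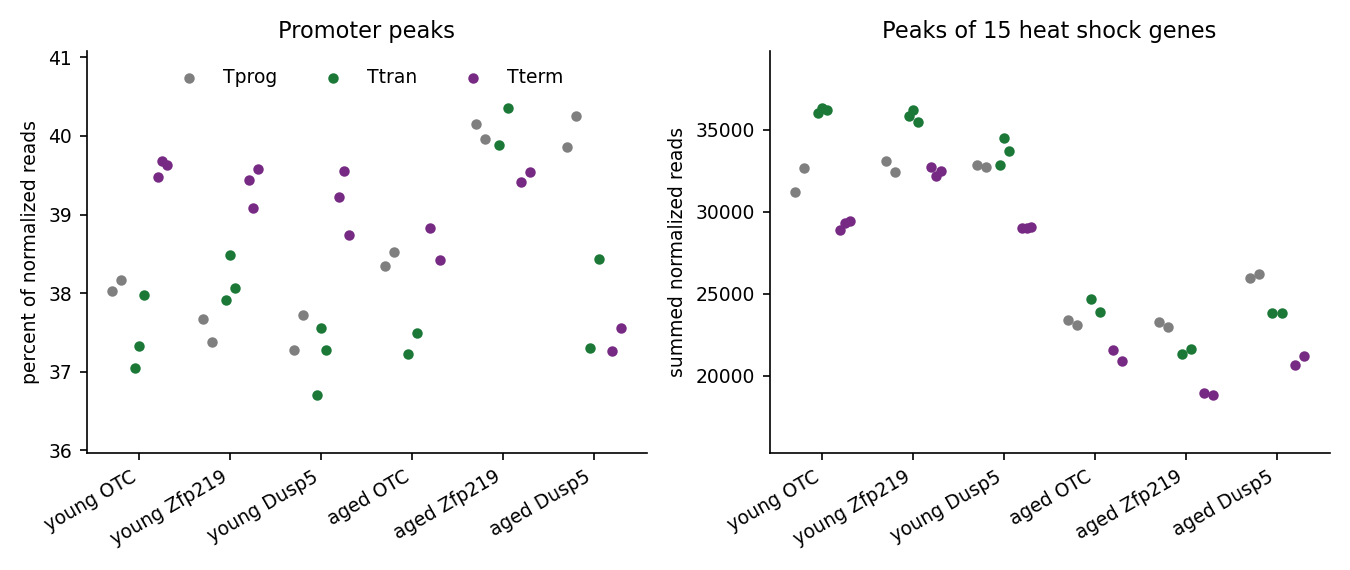
Percent of normalized reads in promoter peaks (left) and summed normalized reads over peaks of the 15 heat shock genes (right) for each library, by setting and state; points are libraries and neither axis starts at 0. Ttran (green) lies below Tterm (purple) at left without overlap in young mice and in aged OTC mice, but above it in aged Zfp219 mice and overlapping it in aged Dusp5 mice; at right it lies above Tterm in all 6 settings.

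Base composition followed the direction of the calls made under the deposited scaling. It was not read on the calls of promoter peaks scaled on their own. Among promoter windows inside a peak, those in higher peaks (357 windows) had a median of 60.0% G and C and 19 CpG pairs, those in lower peaks (1538) 67.3% and 30, and all 11550 windows in a peak 62.0% and 22. The ETS letters CCGGAA, as in the Rps10 promoter, occurred in 33.5% of windows in lower peaks, 18.5% in higher peaks and 29.7% of all in a peak. The order was reversed for the RUNX letters TGTGGT (8.45%, 14.6% and 12.2%), the T-box letters AGGTGT (8%, 12.9% and 10.3%), the TCF/LEF letters CTTTGA (8.84%, 14.3% and 11%) and the AP-1 letters TGANTCA (3.12%, 7.56% and 4.54%). Heat shock element letters, GAANNTTC, were found in 4.36%, 5.60% and 5.22%. Other motifs searched did not all follow: NFAT letters GGAAA occurred in 55.1% of windows in lower peaks, 50.7% in higher peaks and 57.7% of all in a peak, E-box letters CAGNTG in 35%, 39.8% and 42.3%, IRF letters AANNGAAA in 12.5%, 16% and 16.7%, KLF letters GGGNGTGG in 24.5%, 26.6% and 23.8%, and NR4A letters AAGGTCA in 2.02%, 2.52% and 2.68%. Over all 21263 promoter windows the shares were 18.7% for ETS, 15% for RUNX, 12.7% for T-box, 14.4% for TCF/LEF, 6.99% for AP-1, 7.21% for the heat shock letters, 59.9% for NFAT, 48.6% for E-box, 21.8% for IRF, 19.4% for KLF and 4.08% for NR4A. Motifs were searched on both strands and could overlap each other, and G and C content differs between these sets.

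The same contrast was read in the libraries with other guides or older hosts. With the Dusp5 guide 4789 peaks were called (8.89%; 5.3% higher, 3.59% lower), with Zfp219 1160 (2.15%; 1.3% and 0.85%) and in aged OTC mice 1735 (3.22%; 1.87% and 1.35%). Of the 2705 peaks higher in young OTC Ttran, 2621 had the same direction with Dusp5 and 1476 of these were called there, 54.6% against 5.3% of all peaks called higher. With Zfp219 the numbers were 2289 in the same direction and 416 called (15.4% against 1.3%), and in aged mice 2358 and 447 (16.5% against 1.87%). Of the 1810 lower peaks, 1763 had the same direction with Dusp5 with 826 called, 1485 with Zfp219 with 99 called, and 1596 in aged mice with 179 called. Calls in the opposite direction numbered 0 with Dusp5, 5 with Zfp219 and 2 in aged mice, all among the higher peaks. Aged mice had 2 libraries per state, and depth differed between settings. The Zfp219 Ttran libraries had 6589023, 7606132 and 7952298 reads in peaks, the Zfp219 Tterm libraries 18521013, 19656024 and 20073943. With Dusp5 the Ttran libraries had 7809388, 14960712 and 20077793. Counts of calls therefore cannot be compared in size across settings, and the part of depth in them was not tested.

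**Figure D5:**
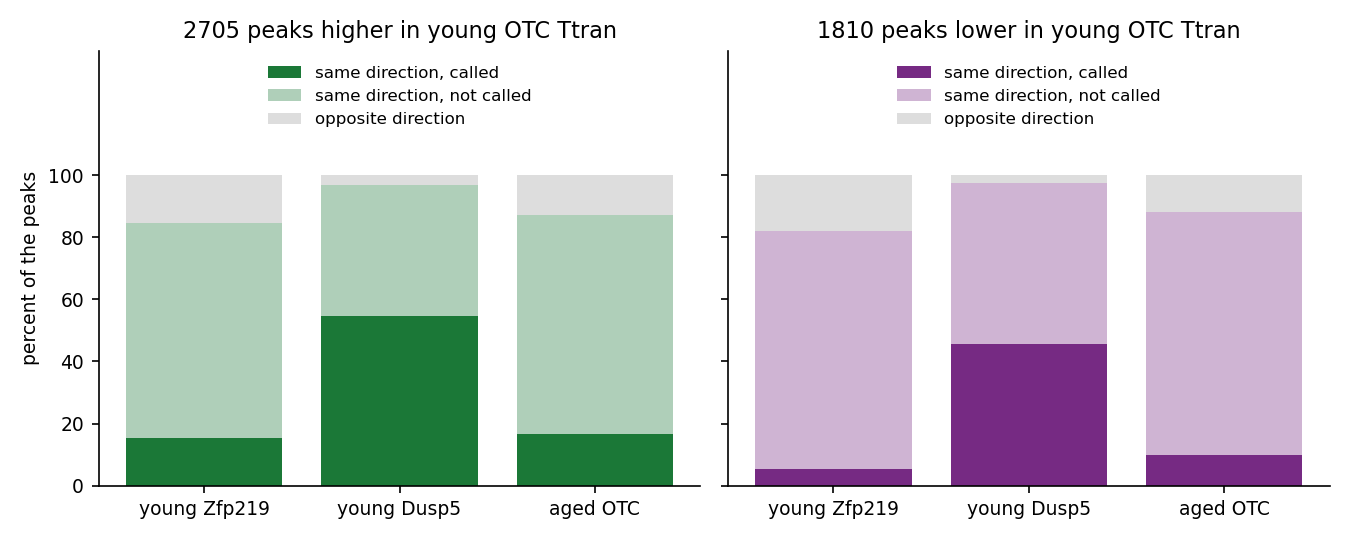
For the 2705 peaks higher (left) and the 1810 lower (right) in young OTC Ttran, the percent that had the same direction and was called (dark), the same direction and was not called (pale) or the opposite direction (grey) in 3 settings with other libraries. With the Dusp5 guide 54.6% of the higher and 45.6% of the lower peaks were called the same way.

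Peaks called in all 4 tested settings were mostly rises, 131 higher on 86 genes and 12 lower on 10. These calls rest on a spread shared by all libraries. With the compared groups alone, calls numbered 7331 in young OTC, 5339 with Dusp5, 66 with Zfp219 and 625 in aged OTC mice. Fam53b had 5 of the higher ones, Batf3 and Slamf6 3 each, and Cd83, Emb, Foxp1, S1pr1, Dhrs3 and Tomm20 2 each. Tcf7, Id3, Ccr7, Xcl1, Fos, Il2, Hspa1a, Hspa8 and Hsp90aa1 had 1 each. The Gzme promoter was among the 12 lower, with log2 fold changes of -0.87 with Zfp219, -0.96 with Dusp5 and -1.0 in aged mice. Hspa1a was 0.20 with Zfp219, 0.44 with Dusp5 and 0.56 in aged mice, and Hsp90aa1 0.35, 0.52 and 0.76, all called. Neither was called in the tests of a difference between settings, which did not compare OTC with either guide alone. Of the 12 largest rises, 12 had the same direction with Dusp5 (8 called), 10 with Zfp219 (3 called) and 11 in aged mice (3 called). The Rora peak that ranked first was 1.38 with Dusp5 (limma adjusted p = 0.0015) but -0.04 with Zfp219 and 0.32 in aged mice, neither called. Of the 12 largest falls, 10 had the same direction with Dusp5 (0 called), 10 with Zfp219 (1 called) and 9 in aged mice (1 called).

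Many of the changed peaks also separated Tprog from Tterm. This was read in the Zfp219 and Dusp5 libraries, since Tprog and Tterm of young OTC mice would share libraries with the contrast. Of the 2705 higher peaks, 1649 (61.0%) with Zfp219 and 1817 (67.2%) with Dusp5 were called higher in Tprog than in Tterm, against 13.3% and 15.3% of all peaks. In either direction, 26.8% and 29.8% of all peaks differed between Tprog and Tterm, and 23.5% and 19.3% between Tprog and Ttran. Against Ttran, Tprog was higher at 1143 (42.3%) and 813 (30.1%) of them and lower at 203 and 252, against 11.8% and 9.38% of all peaks called higher. Of the 1810 lower peaks, 949 (52.4%) and 946 (52.3%) were lower in Tprog than in Tterm, against 13.6% and 14.5% of all peaks, and 2 and 7 were higher. Against Ttran, Tprog was lower at 519 (28.7%) with Zfp219 and 181 (10%) with Dusp5, where 11.7% and 9.89% of all peaks were.

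The size of the contrast was then compared between settings. Between young and aged OTC mice 40 peaks differed (0.0743% of all, limma adjusted p under 0.05), 25 (0.0464%) with the larger log2 fold change in young mice and 15 (0.0278%) with the larger in aged mice. The column headers repeat the same sample numbers for young and for aged libraries, which may therefore be separate sets. Host age cannot be told apart from such a set here. Between OTC and the mean of the 2 other guides in young mice 1 peak differed (0.00186%), at the promoter of Sp1, a zinc finger factor of GC boxes. That peak held 4137, 4130 and 4174 in Ttran and 3051, 3063 and 3087 in Tterm with the OTC guide, a log2 fold change of 0.44, compared with 0.005 for Zfp219 and 0.29 for Dusp5. The difference was 0.29 (limma adjusted p = 0.038), and its call was lost when any of the 6 young OTC libraries was left out. This test takes the mean of the 2 guides, so opposite shifts, such as those at the Thy1 peak described below, can cancel. OTC was not compared with either guide alone, so the count does not show how far the contrast depends on the guide.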

How the data were processed

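ATAC-seq peaks were analysed in 48 libraries of tumour CD8 T cells, 6 of them in the contrast described here. The deposited table holds the authors' signal per peak, which are read counts divided by a size factor per library: whole reads were recovered for 100% of values within a tolerance of 0.01 reads. Bowtie2 2.2.9, Picard 2.8.0, SAMtools 1.3.1, MACS2 2.1.1 and DESeq2 1.28.1 and the build mm10 are named in the submitters' processing notes, with no role or order. Fragment shifting, duplicate removal and the way peaks were merged are not given in the sources used here.

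Values were taken as log2(value + 1) and fitted with limma 3.58.1 in R 4.3.3, with a mean per group over all 48 libraries, a trended variance and Benjamini-Hochberg adjustment over 53868 peaks. The threshold for a call was an adjusted p of 0.05. Counts recovered from the table were tested with edgeR 4.0.16 and DESeq2 1.42.0 as alternatives, leaving out 1 young Tprog library with the Zfp219 guide. Other alternatives were a pseudocount of 8, dropping the weakest 25% of peaks, other scalings, the compared groups alone, library weights, a replicate block, thinning and leaving out libraries. Leaving out the deepest and the shallowest library together, and scaling promoter and other peaks apart, were added after seeing the data. Peaks inside a protein-coding gene were given that gene, others the nearest one within 100000 bp (RefSeq, GRCm38.p6). Named peaks were the strongest and the lowest-p called peak of listed genes, the 12 largest rises and falls (1 per gene) among called peaks without overlap between the groups and with a mean of at least 20 normalized reads, the peaks of the 8 genes with most called peaks each way, and the 3 largest differences each way between settings. The printed promoters, the heat shock, granzyme, NK complex and other immediate early genes, and genes called in all 4 settings were chosen after their values were seen. The contrast and all gene lists were chosen with earlier results of these data known. The fit was tested on simulated data. Results on a few listed genes are not reported here.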

Additional observations from a re-analysis of the deposited data

Results flagged for a closer look

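Between young and aged OTC mice, the Ttran against Tterm contrast differed at 40 peaks by a test of the difference itself in limma. Young and aged libraries may be separate sets, from which host age cannot be told apart. The 3 called peaks with the largest difference each way follow. In Thy1, a surface protein of T cells, an intragenic peak at chr9:44046603-44047436 had a difference of -1.05 ± 0.19 (SE; limma adjusted p = 0.0014). It held 418, 439 and 422 normalized reads in young Ttran against 279, 262 and 248 in young Tterm, and 2944 and 3051 against 959 and 829 in aged mice. The same peak was lower in Ttran with the Zfp219 guide (-1.21, limma adjusted p = 4.6e-13) and higher with Dusp5 (1.35, limma adjusted p = 6.9e-16).

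Near Ssc5d the difference was -1.76, with 89.6, 103 and 84.5 against 89.7, 81.0 and 107 in young mice and 90.3 and 112 against 28.3 and 29.3 in aged mice. At the promoter of Ifi213, an interferon-induced gene, it was -1.59, with 63.2 and 87.7 against 28.3 and 22.9 in aged mice. Near Rbpj, the DNA-binding effector of Notch signalling, it was 1.41, with 166, 168 and 169 against 116, 127 and 88.3 in young mice and 119 and 84.5 against 151 and 201 in aged mice. The young call at this peak was lost without Tterm replicate 1 (0.66) or 3 (0.47), without Ttran replicate 1 (0.62), 2 (0.61) or 3 (0.61), under quantile normalization (0.56) and after thinning (0.60). Weak peaks at Ceacam2 (3.86) and near Edem1 (3.53) were below 7 normalized reads in both aged Ttran libraries.

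Between the OTC guide and the mean of the Zfp219 and Dusp5 guides, 1 peak differed, the Sp1 promoter at 0.29 (limma adjusted p = 0.038). Opposite shifts with the Zfp219 and Dusp5 guides can cancel in this mean.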

How the results depend on the processing

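No called peak named here changed sign in an alternative. Calls of young OTC Ttran against Tterm numbered 7331 with the compared groups alone, 8176 with library weights, 6870 with DESeq2 (3454 higher, 3416 lower), 2916 to 3339 with a library left out and 1356 without Ttran replicates 1 and 3. edgeR called 6210. With Zfp219 the same settings gave 66, 670 and 427, thinning 547, and leaving out a library 540 to 1336. Dusp5 gave 2820 to 4175 with a library left out. Aged OTC gave 625, 849 and 550, thinning 871, and 499 to 1273 with a library left out, where 1006 higher and 729 lower became 546 and 727 without Ttran replicate 1 and 586 and 649 without Ttran replicate 2. Promoter peaks scaled on their own had 838 higher and 502 lower. The difference between ages had 23 calls under quantile normalization, 133 with DESeq2, 15 after thinning and 11 to 152 with a library left out. The difference between OTC and the mean of the other guides had 4 without the weakest peaks and 7 under quantile normalization. It had 7 with the compared groups alone, 56 with library weights, 19 with edgeR and 70 with DESeq2. It had 0 with the replicate block, 0 after thinning and 0 to 1 with a library left out. The gene lists together had 317 calls with library weights and 60 without Ttran replicates 1 and 3, where stem-like genes had 21 and AP-1 genes 12. Heat shock genes had 20 with the compared groups alone, 19 with edgeR and 19 with DESeq2. The cause of these shifts was not tested. Of 154 called peaks named, 93 stayed called without each of the 6 libraries in turn and 58 in every alternative. Same-numbered libraries did not deviate together (r of -0.0006, 0.0084 and 0.0058 over 46943 peaks), and the replicate block gave 4441 calls.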
